A study of Mus musculus with 12 samples.

Results

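The 8 genes described here encode the first steps of T-cell receptor signalling: the kinases Lck and Zap70, the adaptor Lat, the pre-TCR alpha chain Ptcra, and the signalling chains Cd3d, Cd3e, Cd3g and Cd247. They are taken from the expression table by gene symbol. Of the 8, 7 had a row in the expression table of 13016 genes, and Cd3e was not analysed here. Expression was measured by full-length messenger RNA sequencing of early thymic progenitors (ETPs), the earliest T-lineage cells of the mouse thymus, with 100 cells sorted by flow cytometry for each of 12 libraries. All mice were C57BL/6, and no age was used here. All 3 groups carried both floxed genes, Ezh2 fl/fl and Runx1 fl/fl. The dKO_Flt3ITD group (4 libraries) had in addition the Cre recombinase transgene, written Rag1Cre+, and Flt3 ITD/+, 1 copy of an internal tandem duplication in the receptor kinase gene Flt3. The dKO group (4 libraries) had Rag1Cre+ and no Flt3 mutation in its label. The control group (4 libraries) had the floxed genes alone, with no Cre in its label. Ezh2 encodes the histone H3 lysine 27 methyltransferase of the Polycomb system, and Runx1 encodes a transcription factor of blood cells. Cre from Rag1 acts only in cells that have expressed Rag1, so a library may hold cells that kept their floxed alleles.

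In a T cell the receptor's own chains have very short tails, and the signal passes through the CD3 chains and the zeta chain encoded by Cd247, whose tails carry paired tyrosines called ITAMs. Lck phosphorylates these tyrosines, Zap70 binds them and is itself activated by Lck, and Zap70 then phosphorylates Lat, the membrane scaffold on which downstream enzymes assemble. Developing thymocytes use the same machinery at the beta-selection checkpoint, where a new T-cell receptor beta chain pairs with the pre-TCR alpha chain. That checkpoint lies after the ETP stage, so the receptor itself is not yet made in ETPs.

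Levels are given as RPKM, read counts divided by transcript length and library size, so different genes can be set side by side. The whole reads behind the RPKM values could be recovered and totalled 13623436 to 33985972 per library. The RPKM of all genes summed to 576131 to 1071040 per library in dKO_Flt3ITD, 554475 to 829421 in dKO and 515638 to 655712 in control libraries. In that sum dKO_Flt3ITD replicate 1 stood apart from the rest of its group, which reached 666626. Fold changes are differences of group means of log2(RPKM + 1), which understates the change of low genes, and come from a limma fit across the 10690 genes that reached 1 RPKM in 4 or more libraries. A gene was called where its Benjamini-Hochberg adjusted p was under 0.05. Nothing in the labels says that replicates came from separate animals, so an adjusted p-value speaks only for how these libraries scatter, which may be technical. In RNA from pooled cells, fewer cells that express a gene cannot be told apart from less RNA per cell.

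The ETP label was checked against its marker genes. Of 9 ETP markers 8 were in the table, and their summed level was 476 to 585 RPKM in dKO_Flt3ITD, 468 to 550 in dKO and 584 to 835 in control libraries, with none called in any comparison. Kit, the receptor that defines ETPs, was at 49.8 ± 19.3 RPKM in dKO_Flt3ITD, 52.5 ± 13.3 in dKO and 58.1 ± 10.3 in control libraries (SD, n = 4 each). Flt3, another receptor of ETPs, was at 33.2 ± 26.3 RPKM in dKO_Flt3ITD and 29.1 ± 11.5 in dKO, against 78.3 ± 25.7 in control libraries, and every dKO library lay below every control library. The means of Cd34 were 198 ± 65.9 RPKM in dKO_Flt3ITD, 203 ± 79.2 in dKO and 345 ± 115 in control libraries, and those of Cd44 were 38.4 ± 18.0, 40.6 ± 11.8 and 67.4 ± 22.1 RPKM in dKO_Flt3ITD, dKO and control libraries. Lmo2, a factor of early progenitors, was at 76.7 ± 13.9 RPKM in dKO_Flt3ITD and 43.9 ± 19.2 in dKO, against 31.2 ± 25.7 in control libraries. The markers were present in all groups but not at equal levels, and their part in the members' levels was not tested. The genes targeted were read at the level of the whole gene, which does not isolate the deleted exons and so does not check the deletion. Ezh2 was at 16.4 ± 5.59 RPKM in dKO_Flt3ITD and 22.6 ± 5.87 in dKO, against 39.8 ± 5.83 in control libraries, with no overlap between mutants and controls. Runx1 was at 32.6 to 58.8 RPKM in dKO_Flt3ITD and 35.9 to 58.2 in dKO, against 16.3 to 25.3 in control libraries, so its signal over the whole gene was higher in the libraries labelled as Runx1 mutants.

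The members fell into 3 tiers by how many libraries reached 1 RPKM. Lck, Lat and Ptcra were above 1 RPKM in all 12 libraries. Cd3d and Cd247 stayed under 3 RPKM everywhere and just passed the filter for testing, Cd247 with its 4 control libraries alone and Cd3d with 3 control libraries and 1 dKO_Flt3ITD library. Cd3g and Zap70 reached 1 RPKM in only 2 libraries and 1 library, all of them control, and were not tested. These tiers are not an order of means: in control libraries Cd3g and Cd247 both averaged 2.47 RPKM, and Cd3d 1.47. A gene that passes the filter only through the group in which it is high was bound to look different there, so no count over the 5 tested genes is used as support for anything below.

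**Figure D1:**
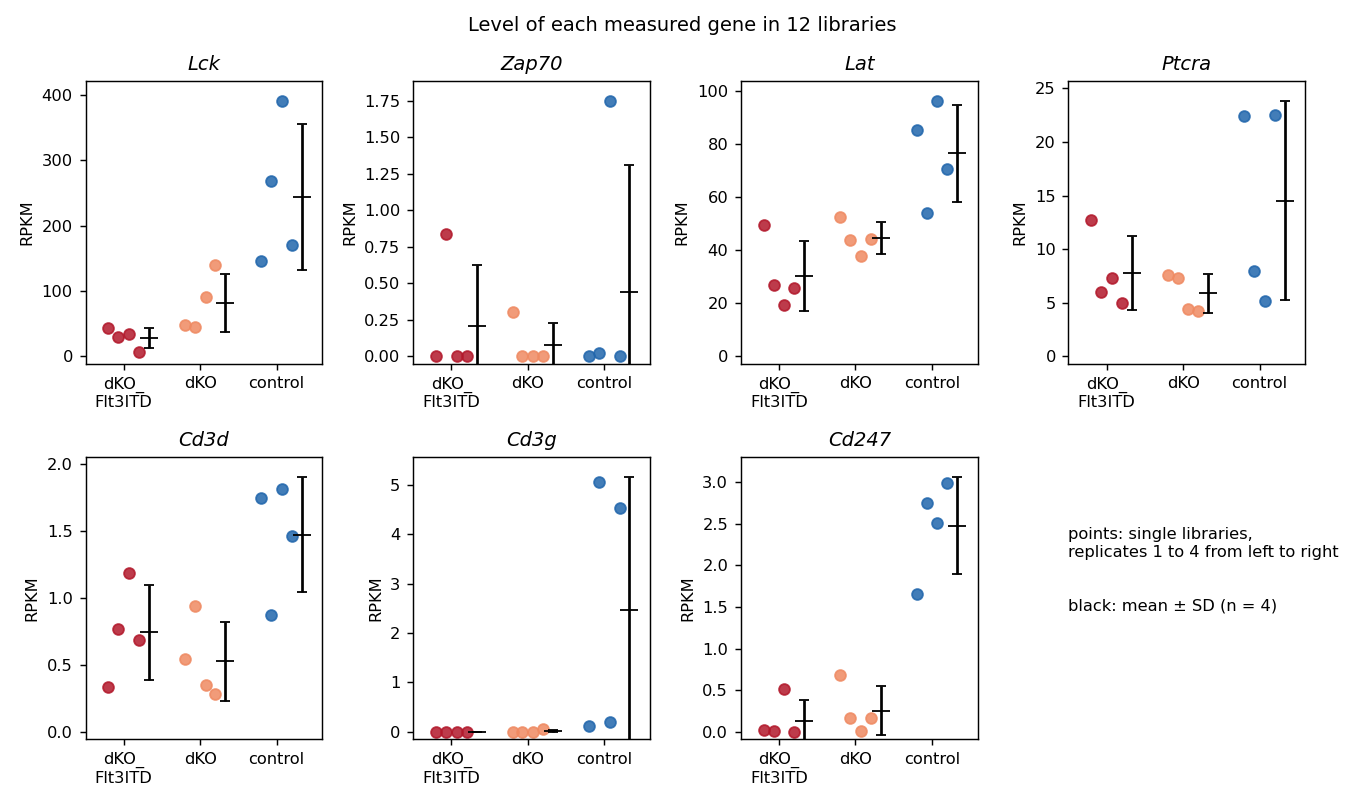
Level of each of the 7 measured genes in RPKM (vertical axis, linear, a separate scale for each gene) in dKO_Flt3ITD, dKO and control libraries. Points are single libraries, and the black bar and whiskers give the mean ± SD of 4 libraries; whiskers that would pass below 0 are cut at the axis. The control points of Lck, Lat, Cd247 and Cd3g all lie above every mutant point, while those of Ptcra, Cd3d and Zap70 overlap the mutant points.

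The stretches of DNA just before the transcription starts are shown for the genes whose mutant and control libraries did not overlap (Lck, Cd247, Lat and Cd3g) and for Ptcra, the pre-TCR gene. Each is the 250 bases upstream of an annotated RefSeq start on GRCm38.p6, the build that mm10 names, printed 5′ to 3′ on the gene's own strand. Capitals mark 2 words, searched on both strands: TGTGGT, the core of RUNX sites, included because Runx1 is one of the genes targeted, and CAGNTG, the E-box form that E proteins bind in lymphocytes. Lck has 2 annotated starts, a distal one at the 5′ end of the gene and a proximal one within it, and whole-gene values cannot tell their transcripts apart. The windows lie at chr4:129558373-129558622 on the minus strand (Lck, proximal start), chr4:129573642-129573891 on the minus strand (Lck, distal start), chr1:165788431-165788680 on the plus strand (Cd247), chr7:126369569-126369818 on the minus strand (Lat), chr9:44980432-44980681 on the minus strand (Cd3g) and chr17:46763713-46763962 on the minus strand (Ptcra).
Lck proximal: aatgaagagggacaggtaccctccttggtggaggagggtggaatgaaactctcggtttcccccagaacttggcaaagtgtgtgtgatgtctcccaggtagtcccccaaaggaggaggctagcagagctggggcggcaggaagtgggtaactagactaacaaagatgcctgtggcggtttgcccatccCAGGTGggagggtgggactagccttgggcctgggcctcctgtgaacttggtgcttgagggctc
Lck distal: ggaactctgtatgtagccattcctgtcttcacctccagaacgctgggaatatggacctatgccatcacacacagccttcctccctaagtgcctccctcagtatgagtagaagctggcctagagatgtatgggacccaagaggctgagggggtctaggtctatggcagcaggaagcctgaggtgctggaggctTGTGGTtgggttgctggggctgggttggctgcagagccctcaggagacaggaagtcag
Cd247: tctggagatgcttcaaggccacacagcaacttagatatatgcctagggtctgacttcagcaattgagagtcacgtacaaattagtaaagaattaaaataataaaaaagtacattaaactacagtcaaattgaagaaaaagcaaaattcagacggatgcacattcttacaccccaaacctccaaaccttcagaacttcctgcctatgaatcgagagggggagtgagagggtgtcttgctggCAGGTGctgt
Lat: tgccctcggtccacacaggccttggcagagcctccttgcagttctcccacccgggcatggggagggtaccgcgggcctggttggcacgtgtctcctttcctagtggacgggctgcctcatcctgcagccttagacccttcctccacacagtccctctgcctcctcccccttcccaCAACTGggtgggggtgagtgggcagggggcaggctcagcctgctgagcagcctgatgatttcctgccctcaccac
Cd3g: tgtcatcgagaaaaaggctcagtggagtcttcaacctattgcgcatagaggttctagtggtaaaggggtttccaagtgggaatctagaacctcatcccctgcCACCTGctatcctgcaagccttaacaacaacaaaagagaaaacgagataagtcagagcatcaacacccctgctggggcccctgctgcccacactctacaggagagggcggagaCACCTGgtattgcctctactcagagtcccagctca
Ptcra: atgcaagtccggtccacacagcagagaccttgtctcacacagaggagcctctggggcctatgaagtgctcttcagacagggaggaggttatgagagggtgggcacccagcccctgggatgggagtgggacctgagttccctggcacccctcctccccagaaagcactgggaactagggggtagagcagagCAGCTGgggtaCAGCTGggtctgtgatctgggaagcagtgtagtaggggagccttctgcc

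The proximal Lck window held 1 E-box, 63 to 58 bases before the start, and no RUNX word. The distal Lck window held 1 RUNX word, 58 to 53 bases before the start, and no E-box. Ptcra had a pair of E-boxes, at 60 to 55 and 49 to 44 bases before its start, and Cd3g had a pair at 148 to 143 and 35 to 30. The E-box of Cd247 lay 10 to 5 bases before its start, and that of Lat 75 to 70 bases before it. Over the 11 windows of all 8 genes, Cd3e and further starts of Zap70 included, 8 held the E-box and 2 held the RUNX word. The same words stood in 44.8% and 14% of 32851 windows of this length from all genes. Of the other words searched, AGATAA (the GATA core, in 9.99% of all windows) stood in 1 member window, that of Cd3g, and CTTTGA (the TCF core, in 13.8% of all windows) in 2, those of Cd3d and 1 start of Zap70. None of the matches overlapped another. A word of this length recurs by chance, and its presence is a description of the letters, not of binding.

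Lck, the kinase that starts receptor signalling, had the highest mean of the members in control libraries and, in dKO_Flt3ITD libraries, the largest fold change of the 5 tested members on the log2(RPKM + 1) scale. The rank depends on that scale: with a pseudocount of 0.1 RPKM the log2 fold change of Cd247 was -3.91 and that of Lck -3.29, and with voom on the recovered reads -6.40 for Cd247 and -3.33 for Lck. It lies at chromosome 4, bases 129548344 to 129573641, on the minus strand (GRCm38, GENCODE). Its level was 42.9, 28.6, 33.5 and 6.83 RPKM in the 4 dKO_Flt3ITD libraries, 48.1, 44.4, 91.0 and 140 RPKM in the dKO libraries and 146, 269, 390 and 170 RPKM in the control libraries. No pair of groups overlapped: every dKO_Flt3ITD library lay below every dKO library, and every dKO library lay below every control library. The gaps were narrow, with 42.9 RPKM in the highest dKO_Flt3ITD library against 44.4 in the lowest dKO library, and 140 in the highest dKO library against 146 in the lowest control library. These values rested on 381 to 2688 reads in dKO_Flt3ITD, 1554 to 5980 in dKO and 9069 to 22369 in control libraries, so counting error is small beside the spread between libraries.

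Against control libraries, Lck in dKO_Flt3ITD libraries fell by 3.22 on the log2 scale (SE 0.52, limma adjusted p = 0.00281), with means of 28.0 ± 15.3 RPKM in dKO_Flt3ITD and 244 ± 111 RPKM in control libraries (SD, n = 4 each). It was the 1 member called, where 1.50% of all tested genes were called in either direction and 0.505% as lower. By p it ranked 34 of 10690. The call held in all 21 alternative fits, with adjusted p between 0.000492 and 0.0158, and each fit without 1 library kept it. In dKO libraries the mean of Lck was 80.8 ± 44.6 RPKM, with a log2 fold change against control of -1.63 (SE 0.52), and it did not pass (limma adjusted p = 0.203). Between dKO_Flt3ITD and dKO libraries its log2 fold change was -1.59, with a 95% interval of -2.68 to -0.50 before adjustment, and it did not pass (limma adjusted p = 0.418). The comparisons with control share the same 4 control libraries, so they are not independent of each other.

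Lat, the membrane scaffold that Zap70 phosphorylates, was the other abundant member and lies at chromosome 7, bases 126363824 to 126369570, on the minus strand. It was at 49.5, 26.7, 19.4 and 25.6 RPKM in dKO_Flt3ITD libraries, 52.6, 43.9, 37.9 and 44.0 RPKM in dKO libraries and 85.3, 54.0, 96.1 and 70.7 RPKM in control libraries. Both mutant groups lay wholly below the control libraries, by a narrow margin, 52.6 RPKM in the highest dKO library against 54.0 in the lowest control library, while dKO_Flt3ITD and dKO overlapped. The log2 fold change against control was -1.36 in dKO_Flt3ITD (SE 0.34, limma adjusted p = 0.0594) and -0.74 in dKO (SE 0.34, limma adjusted p = 0.517), and neither passed. Between dKO_Flt3ITD and dKO it was -0.62 (limma adjusted p = 0.707). With every library scaled to the same sum, Lat was at 19.4 to 30.9 in dKO_Flt3ITD and 39.6 to 52.9 in dKO libraries, which no longer overlapped, and it was still not called in that comparison. The dKO_Flt3ITD comparison sat close to the threshold: Lat was called without dKO_Flt3ITD replicate 1, the highest of its group (limma adjusted p = 0.0221), and under 4 other settings, with adjusted p from 0.0159 to 0.162 over 21 alternatives.

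Zap70, the kinase that binds phosphorylated ITAMs, was nearly absent. It lies at chromosome 1, bases 36761798 to 36782818, on the plus strand. A single library carried most of its reads in each group: 0, 0.837, 0 and 0 RPKM in dKO_Flt3ITD (34 reads), 0.302, 0, 0 and 0 RPKM in dKO (11 reads) and 0, 0.0230, 1.75 and 0 RPKM in control libraries (96 reads, 95 of them in replicate 3). The groups overlapped at 0. A library at 0 allows a level of up to 3 reads, 0.0476 to 0.0903 RPKM over the groups, a limit that accounts for counting error alone, as amplified copies are not separate molecules.

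Ptcra, which encodes the pre-TCR alpha chain and is known as an early T-lineage gene, was present in every library and did not separate the groups. It lies at chromosome 17, bases 46755663 to 46763712, on the minus strand. Its level was 12.7, 6.02, 7.32 and 4.91 RPKM in dKO_Flt3ITD libraries, 7.56, 7.32, 4.42 and 4.18 RPKM in dKO libraries and 22.4, 7.94, 5.15 and 22.5 RPKM in control libraries. The control libraries split into a pair near 22 RPKM and a pair inside the range of the mutant libraries, so all 3 groups overlapped. The log2 fold change against control was -0.67 in dKO_Flt3ITD (SE 0.52, limma adjusted p = 0.628) and -0.98 in dKO (SE 0.52, limma adjusted p = 0.639). Their 95% intervals before adjustment, -1.77 to 0.43 and -2.08 to 0.11, both include 0. The dKO interval also includes the -1.63 estimated for Lck in dKO. The dKO_Flt3ITD interval does not reach the -3.22 estimated for Lck in dKO_Flt3ITD. Between dKO_Flt3ITD and dKO the difference was 0.31 (limma adjusted p = 0.931).

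The signalling chains were low even in control libraries. Cd247 encodes the zeta chain, which carries more ITAMs than any CD3 chain, and lies at chromosome 1, bases 165788681 to 165877277, on the plus strand. Its level was 0.0160, 0.0117, 0.510 and 0 RPKM in dKO_Flt3ITD libraries, 0.676, 0.171, 0.00770 and 0.163 RPKM in dKO libraries and 1.65, 2.75, 2.51 and 2.99 RPKM in control libraries. Every mutant library lay below every control library, and the mutant groups overlapped. In reads this was 2, 1, 58 and 0 in dKO_Flt3ITD, 52, 12, 1 and 14 in dKO and 206, 252, 288 and 398 in control libraries. The log2 fold change against control was -1.62 in dKO_Flt3ITD (SE 0.40, limma adjusted p = 0.0576) and -1.48 in dKO (SE 0.40, limma adjusted p = 0.110), and neither passed. On the linear scale the mean was 0.134 ± 0.251 RPKM in dKO_Flt3ITD and 0.255 ± 0.291 in dKO, against 2.47 ± 0.584 in control libraries, ratios of 0.0543 and 0.103 that the log2(RPKM + 1) scale compresses. With every gene of the table in the fit it was called in both comparisons (limma adjusted p = 0.00657 for dKO_Flt3ITD and 0.0164 for dKO). The fold changes were unchanged there, and the SE was 0.24 in place of 0.40. Over all genes that fit called 91 in dKO_Flt3ITD against control in place of 160. The added call of Cd247 is therefore not separate support. Cd247 shares 3007 exon bases with Pou2f1 on the opposite strand, and whether the counting used strand is not given in the sources used here, so reads of the pair cannot be told apart. Pou2f1 itself was at 1.88 ± 1.31 RPKM in dKO_Flt3ITD, 1.14 ± 0.444 in dKO and 2.32 ± 1.75 in control libraries, with overlapping groups.

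Cd3d and Cd3g encode the CD3 delta and gamma chains and lie head to head on chromosome 9, with 1355 bases between their starts, Cd3g on the minus strand (bases 44969572 to 44980431) and Cd3d on the plus strand (bases 44981786 to 44987339). Cd3g was listed at 0 in all 4 dKO_Flt3ITD libraries, at 0, 0, 0 and 0.0525 RPKM in dKO libraries (1 read in all) and at 0.108, 5.05, 0.196 and 4.54 RPKM in control libraries (3, 103, 5 and 134 reads). No mutant library reached the lowest control library, but control replicates 1 and 3 stood at 3 and 5 reads, only just above the mutant libraries. Zero reads in a dKO_Flt3ITD library allow up to 0.108 to 0.157 RPKM, about the level of control replicate 1, so at this depth the difference rests on control replicates 2 and 4. In the fit on every gene of the table Cd3g did not pass (limma adjusted p = 0.254 for dKO_Flt3ITD and 0.372 for dKO against control).

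Cd3d followed a different pattern from its neighbour. It was at 0.331, 0.766, 1.19 and 0.682 RPKM in dKO_Flt3ITD libraries, 0.540, 0.938, 0.346 and 0.283 RPKM in dKO libraries and 1.75, 0.868, 1.81 and 1.46 RPKM in control libraries. Reads were found in every library, 7 to 63 of them, and both mutant groups overlapped the control libraries through control replicate 2. The log2 fold change against control was -0.51 in dKO_Flt3ITD (SE 0.41, limma adjusted p = 0.644) and -0.70 in dKO (SE 0.41, limma adjusted p = 0.700). Control replicate 2, the lowest control library for Cd3d, was the highest for Cd3g, so the neighbouring genes ranked the control libraries differently.

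Beyond Lck, no member was called in any comparison. In dKO against control 0 of the 5 tested members passed limma, where 1.02% of all tested genes were called and 0.234% as lower; 981 genes (9.18%) had an unadjusted p under 0.05, Lck, Cd247 and Lat among them, and voom on the recovered reads called 5 genes and no member. In dKO_Flt3ITD against dKO 0 of 10690 genes passed limma and 0 passed voom, while 824 genes (7.71%) had an unadjusted p under 0.05, Lck the 1 member among them. Groups that did not overlap, with the mutant lower, were found for Lck, Cd247 and Lat in dKO_Flt3ITD against control (3.51% of all tested genes), for the same 3 genes in dKO against control (2.38%) and for Lck alone in dKO_Flt3ITD against dKO (2.20%). Cd247 passed the filter through its 4 control libraries alone, so its lack of overlap with them was fixed by the filter.

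**Figure D2:**
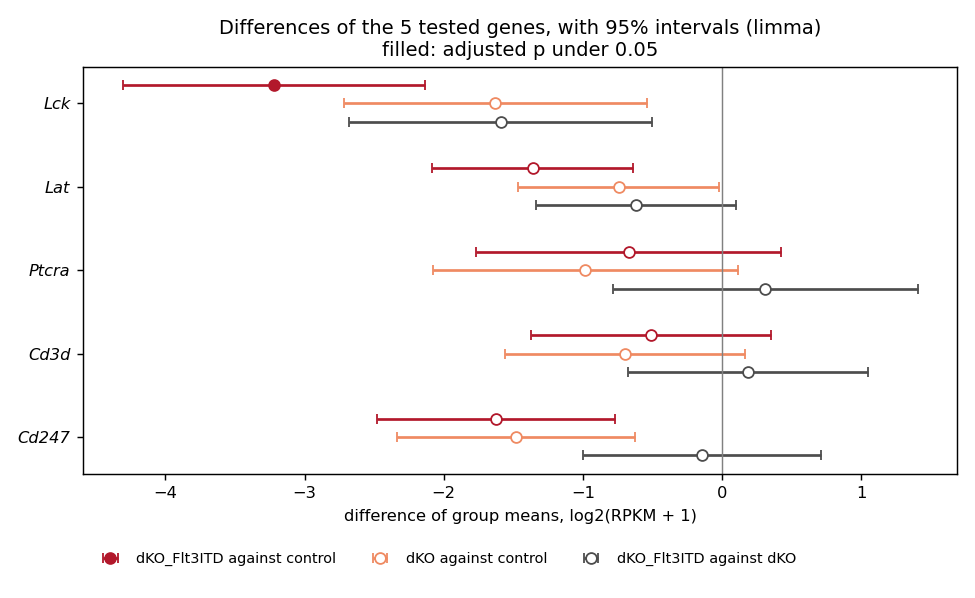
Difference of group means on the log2(RPKM + 1) scale (horizontal axis) for the 5 tested genes, with 95% intervals before adjustment, for dKO_Flt3ITD against control, dKO against control and dKO_Flt3ITD against dKO. A filled point marks an adjusted p under 0.05, which only Lck in dKO_Flt3ITD against control had, at -3.22. The intervals of Cd247 and Lat against control lie below 0 too, but their adjusted p did not pass.

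The order of the members' mean levels was not the same in the 3 groups. In control libraries it was Lck, Lat, Ptcra, Cd247, Cd3g, Cd3d and Zap70. Lck lay above Lat, Lat above Ptcra and Ptcra above Cd247 with no overlap, and the neighbours below that overlapped. In dKO libraries Lck still led Lat in 3 of 4 libraries, though their ranges overlapped, and Ptcra, Cd3d, Cd247, Zap70 and Cd3g followed. In dKO_Flt3ITD libraries Lat had the higher mean (30.3 RPKM against 28.0 for Lck), and the genes were level, with Lat above Lck in 2 of 4 libraries, and Ptcra, Cd3d, Zap70, Cd247 and Cd3g followed. In both mutant groups Ptcra lay above Cd3d with no overlap, and the genes from Cd3d down overlapped their neighbours. Lck made up 18.0 to 54.1% of the summed RPKM of the 7 members in dKO_Flt3ITD, 43.8 to 74.2% in dKO and 56.7 to 79.2% in control libraries. The sum itself was 38.0 to 106 RPKM in dKO_Flt3ITD, 96.8 to 188 in dKO and 257 to 498 in control libraries, and it follows Lck and Lat, which make up most of it.

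Replicates of a group were not high or low for the same members. Among control libraries replicate 3 was highest for Lck, Lat, Cd3d and Zap70, replicate 4 for Ptcra and Cd247, and replicate 2 for Cd3g, but with libraries scaled to the same sum replicate 1 was highest for Lat, Ptcra and Cd3d. Among dKO_Flt3ITD libraries replicate 1, the library with the high RPKM sum, was highest for Lck, Lat and Ptcra, and replicate 3 for Cd247 and Cd3d. With libraries scaled to the same sum, replicate 3 was the highest of that group for Lck instead, and replicate 1 stayed highest for Lat and Ptcra. Replicate 3 of dKO_Flt3ITD was also the highest of its group for Tcf7 (0.814 RPKM) and for the T-cell adaptor Skap1 (1.02 RPKM, the others at 0). Among dKO libraries replicate 4 was highest for Lck and lowest for Cd3d and Ptcra.

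Each of 4 members has a close relative that can serve the same step in other cells, and these relatives were measured in the same libraries. Fyn, the Src-family kinase that partly overlaps with Lck in thymocytes, was at 30.1, 77.2, 36.3 and 8.97 RPKM in dKO_Flt3ITD, 118, 33.2, 38.2 and 46.7 RPKM in dKO and 28.5, 15.0, 9.72 and 19.1 RPKM in control libraries. The dKO libraries lay above the control libraries without overlap, as did those of 3.93% of all tested genes, but neither comparison with control passed: the log2 fold change was 0.79 in dKO_Flt3ITD (limma adjusted p = 0.585) and 1.55 in dKO (limma adjusted p = 0.307). Lck exceeded Fyn in 1 of 4 dKO_Flt3ITD libraries, 3 of 4 dKO libraries and 4 of 4 control libraries. On the log2(RPKM + 1) scale the Lck level minus the Fyn level ran between -1.40 and 0.50 in dKO_Flt3ITD and between -1.28 and 1.56 in dKO, and between 2.31 and 5.19 in control libraries, so the control libraries lay apart from both mutant groups.

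Lat2, a relative of Lat used in B cells and mast cells, fell in both mutant groups. Its level was 65.2, 7.08, 15.9 and 73.9 RPKM in dKO_Flt3ITD, 41.0, 14.1, 28.6 and 26.6 RPKM in dKO and 180, 184, 199 and 160 RPKM in control libraries, with no overlap between mutants and controls. The log2 fold change against control was -2.66 in dKO_Flt3ITD (SE 0.57, limma adjusted p = 0.0247) and -2.76 in dKO (SE 0.57, limma adjusted p = 0.0219). With 1 library left out at a time Lat2 passed in 2 of 8 fits for dKO_Flt3ITD and 1 of 8 for dKO, with adjusted p up to 0.0724 and 0.0776. With voom on the recovered reads it passed in dKO_Flt3ITD (adjusted p = 0.0268) and not in dKO (adjusted p = 0.0525). Lat lay above Lat2 in 2 of 4 dKO_Flt3ITD and 4 of 4 dKO libraries, against 0 of 4 control libraries.

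Syk, the relative of Zap70 that most blood lineages use, was at 7.92 ± 2.88 RPKM in dKO_Flt3ITD, 8.60 ± 2.87 in dKO and 17.7 ± 5.65 in control libraries (SD, n = 4 each), with log2 fold changes against control of -1.06 (limma adjusted p = 0.293) and -0.95 (limma adjusted p = 0.517). It stood above Zap70 in all 12 libraries. Fcer1g, an ITAM adaptor related to Cd247 and used by innate cells, also exceeded Cd247 in all 12 libraries. It was at 173, 3.75, 0.800 and 153 RPKM in dKO_Flt3ITD, 78.3, 26.9, 15.0 and 16.9 RPKM in dKO and 64.4, 90.7, 66.4 and 37.6 RPKM in control libraries. The dKO_Flt3ITD libraries therefore split into replicates 1 and 4, above every control library, and replicates 2 and 3, below all of them, and the same replicates 1 and 4 had the higher Lat2.

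**Figure D3:**
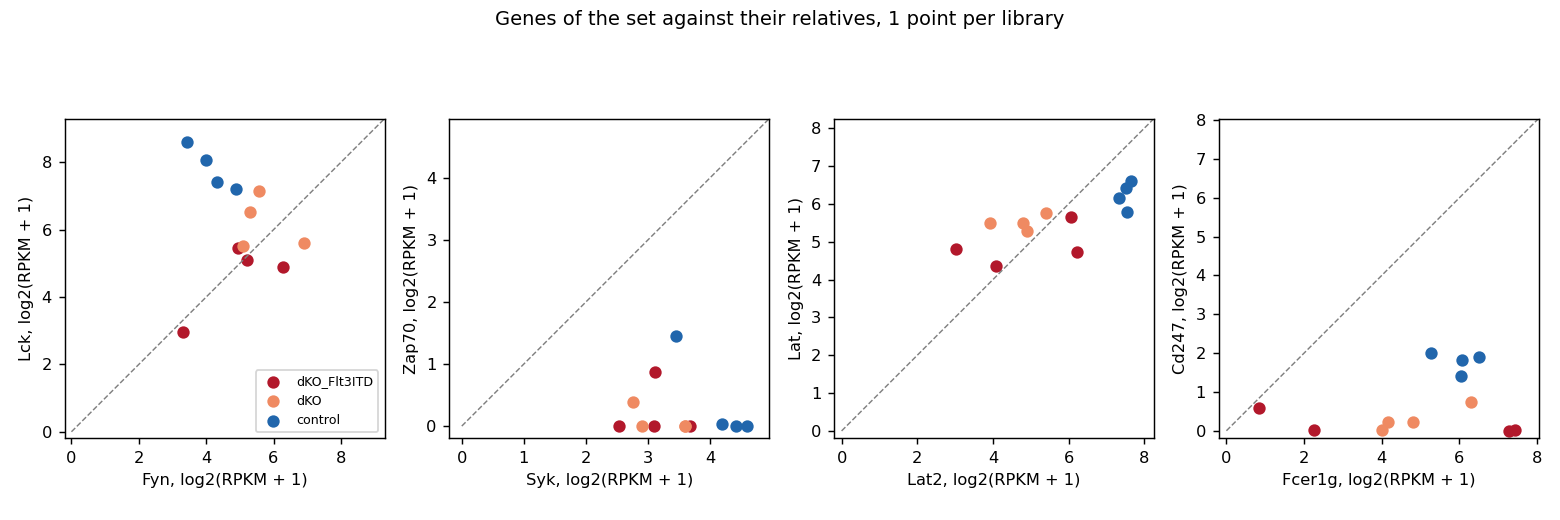
Level of each of 4 genes (vertical axes, log2(RPKM + 1)) against its relative (horizontal axes, the same scale), Lck with Fyn, Zap70 with Syk, Lat with Lat2 and Cd247 with Fcer1g, with 1 point per library and equal levels on the dashed line. Control points lie above the line for Lck in 4 of 4 libraries and below it for Lat in 4 of 4, and all 12 points lie below it for Zap70 and Cd247.

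The wider pathway was read through 9 lists of genes around the receptor. Over all tested genes 1.50% were called in dKO_Flt3ITD against control and 1.02% in dKO against control. At these shares a list of this size often holds no called gene, so a list without calls is not a finding of no change. Of the coreceptors, receptor chains and surface proteins 7 of 17 were in the table and 3 were tested, with none called in either comparison with control and median log2 fold changes of 1.21 in dKO_Flt3ITD and 0.70 in dKO. Thy1, a surface protein of thymocytes, was at 9.84 ± 4.82 RPKM in dKO_Flt3ITD, 3.35 ± 0.914 in dKO and 3.94 ± 2.98 in control libraries, with a log2 fold change of 1.22 in dKO_Flt3ITD against control (limma adjusted p = 0.318). Cd4 was at 3.80 ± 3.04 RPKM in dKO_Flt3ITD, 4.04 ± 2.65 in dKO and 0.851 ± 0.906 in control libraries, with 1.39 in dKO against control (limma adjusted p = 0.493). Of the Src-family kinases other than Lck 3 were tested and none was called, with medians of 0.79 in dKO_Flt3ITD and 0.25 in dKO. Blk and Cd6, which failed the filter and are named here after their values were seen, were listed at 0 in all 4 dKO_Flt3ITD libraries and averaged 0.0121 ± 0.0141 and 0.0177 ± 0.00432 RPKM in dKO, against 9.02 ± 5.75 and 3.52 ± 2.65 RPKM in control libraries, with no overlap between mutants and controls.

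Among the 8 other proximal kinases and phosphatases tested none was called, with medians of -0.24 in dKO_Flt3ITD and -0.32 in dKO. Ptprc, which encodes the phosphatase CD45 that keeps Lck active, was at 81.3 ± 19.9 RPKM in dKO_Flt3ITD, 103 ± 12.1 in dKO and 149 ± 41.2 in control libraries, with a log2 fold change of -0.86 in dKO_Flt3ITD against control (limma adjusted p = 0.199). Of 19 other adaptors tested 2 fell in dKO_Flt3ITD against control and 1 fell in dKO, and none rose, where 0.505% of all tested genes fell in dKO_Flt3ITD and 0.234% in dKO. Besides Lat2 this was Skap1, a T-cell adaptor of integrin activation, at 0.254 ± 0.509 RPKM in dKO_Flt3ITD and 2.08 ± 2.36 in dKO, against 9.60 ± 6.92 in control libraries. Its log2 fold change in dKO_Flt3ITD against control was -2.90 (SE 0.65, limma adjusted p = 0.0346). With 1 library left out at a time it passed in 2 of 8 fits, and it did not pass voom (adjusted p = 0.131). The median of the adaptor list was -0.15 in dKO_Flt3ITD and -0.09 in dKO, beside values near 0 over all genes.

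The steps after Lat showed no called gene among 17 downstream effectors, where 1.50% of all tested genes were called in dKO_Flt3ITD and 1.02% in dKO. Their medians were 0.29 in dKO_Flt3ITD and 0.05 in dKO. Orai1, the pore of the calcium channel opened by receptor signals, was at 16.1 ± 8.73 RPKM in dKO_Flt3ITD, 9.28 ± 5.46 in dKO and 3.48 ± 0.944 in control libraries, with a log2 fold change of 1.84 in dKO_Flt3ITD against control that did not pass (limma adjusted p = 0.0754). Rasgrp1, the Ras activator of thymocytes, was at 3.17 ± 3.95 RPKM in dKO_Flt3ITD, 4.21 ± 2.54 in dKO and 0.0307 ± 0.0383 in control libraries, with 2.22 in dKO against control (limma adjusted p = 0.105). For both genes the mutant group with that value lay above the control libraries without overlap, as 4.16% of all tested genes did in dKO_Flt3ITD and 3.93% in dKO, the opposite direction to Lck. Rasgrp1 passed the filter through mutant libraries alone, so it was bound to look different there. Of 11 negative regulators tested none was called, with medians of -0.14 in dKO_Flt3ITD and 0.23 in dKO. Sla2, an adaptor that dampens receptor signals, had log2 fold changes of -1.56 in dKO_Flt3ITD and -1.38 in dKO (limma adjusted p = 0.305 and 0.545).

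Transcription factors known to act on the members or on T-cell specification held the other called genes. Of 13 tested, 1 rose and 1 fell in dKO_Flt3ITD against control, where 0.992% of all tested genes rose and 0.505% fell, and 1 fell and 0 rose in dKO, where 0.786% rose and 0.234% fell, with medians of 0.01 and 0.02. Tcf7, which encodes the T-cell specification factor TCF-1, was at 0, 0.120, 0.814 and 0 RPKM in dKO_Flt3ITD and 0.0535, 0.0293, 0 and 0.0240 RPKM in dKO, against 8.39, 42.4, 25.2 and 4.08 RPKM in control libraries. Its log2 fold change was -3.68 in dKO_Flt3ITD (SE 0.59, limma adjusted p = 0.00283) and -3.89 in dKO (SE 0.59, limma adjusted p = 0.00232). Each fit without 1 library called Tcf7 in both comparisons, but voom on the recovered reads did not (adjusted p = 0.131 and 0.200). Like Cd247, Tcf7 passed the filter through its 4 control libraries alone, so it was bound to look different there. The fits without 1 library kept the genes chosen on all 12 libraries, so they do not test that selection. Id1, an inhibitor of E proteins, rose in dKO_Flt3ITD, with 29.4 ± 17.3 RPKM in dKO_Flt3ITD and 14.4 ± 11.0 in dKO, against 3.01 ± 3.67 in control libraries, and a log2 fold change of 3.23 in dKO_Flt3ITD against control (SE 0.77, limma adjusted p = 0.0439). The dKO_Flt3ITD and control libraries overlapped for Id1, and it passed in 2 of 8 fits with 1 library left out. It did not pass with a replicate block (limma adjusted p = 0.0556), after scaling to the same sum (limma adjusted p = 0.0691) or with voom (adjusted p = 0.204). The E-protein genes Tcf3 and Tcf12 and the T-cell factor Gata3 were not called in either comparison.

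Neither of the last 2 lists held a called gene. ITAM adaptors and receptor genes of other lineages had medians of -0.08 in dKO_Flt3ITD and 0.25 in dKO over 5 tested genes. Hcst, which encodes the adaptor DAP10, was at 113 ± 35.4 RPKM in dKO_Flt3ITD, 108 ± 63.3 in dKO and 54.9 ± 11.8 in control libraries, with a log2 fold change of 1.01 in dKO_Flt3ITD against control (limma adjusted p = 0.220). Tyrobp, which encodes DAP12, had -1.48 in dKO against control (limma adjusted p = 0.435). The genes that receptor signals induce, 4 tested, had a median log2 fold change of -0.90 in dKO_Flt3ITD and -0.17 in dKO against control, with none called. Cd27, a costimulatory receptor, had -0.96 in dKO_Flt3ITD (limma adjusted p = 0.198), and Cd69, an early activation marker, -0.75 in dKO (limma adjusted p = 0.651). No gene of the 9 lists was called in dKO_Flt3ITD against dKO, where 0 of all 10690 tested genes were called, so this says nothing about the lists.

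**Figure D4:**
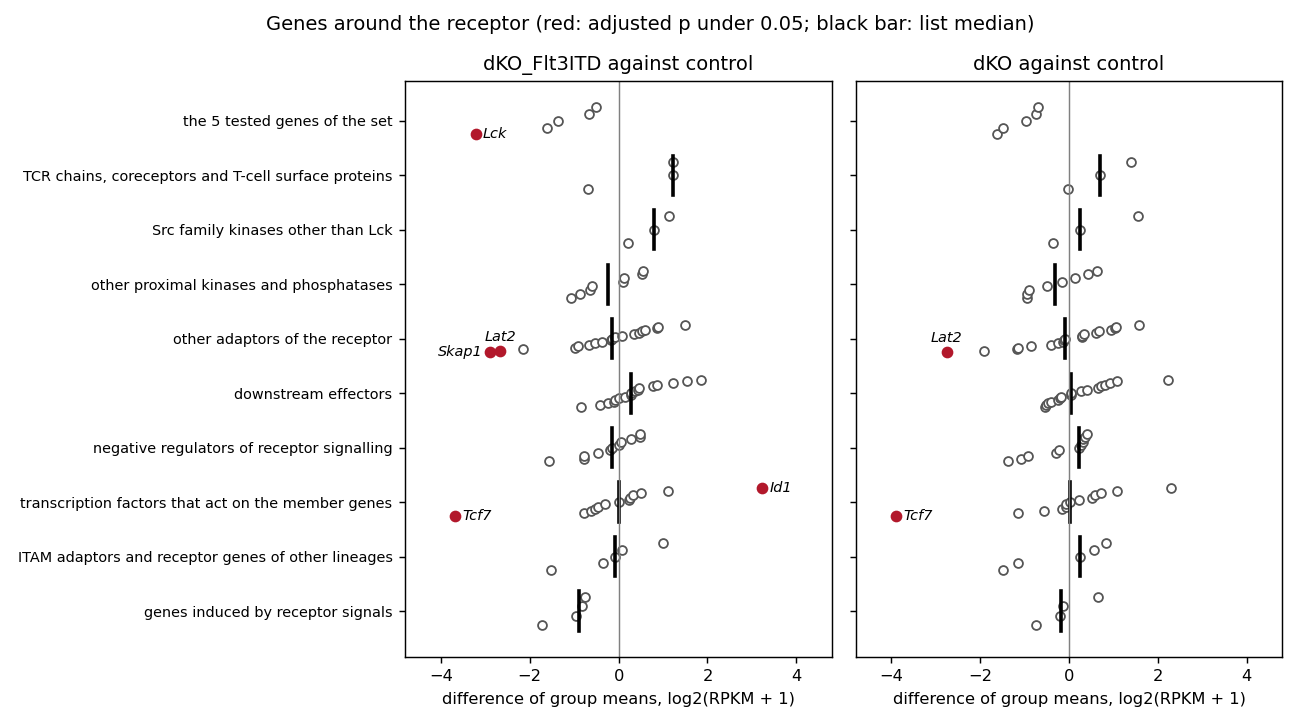
Difference of group means on the log2(RPKM + 1) scale (horizontal axis) for every tested gene of the set and of 9 lists around the receptor (rows), in dKO_Flt3ITD against control (left) and dKO against control (right). Red points with names had an adjusted p under 0.05, open points did not, and black bars are the medians of the 9 lists. Open points lie on both sides of 0, and Lck and Tcf7 in dKO_Flt3ITD against control stand at -3.22 and -3.68.

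The genes whose levels most resembled Lck across the 12 libraries, by Pearson's r on log2(RPKM + 1), were Wdr8 (r = 0.912, Spearman's rho = 0.790), Cd27 (r = 0.897, rho = 0.769), Ccdc135 (r = 0.887, rho = 0.916), Evi2a (r = 0.885, rho = 0.832), Fubp3 (r = 0.881, rho = 0.860) and Tmem206 (r = 0.875, rho = 0.916). These are descriptions over 12 libraries that share 3 groups, so any gene that differs between the groups as Lck does scores high. With group means removed, r was 0.950 for Wdr8, 0.925 for Cd27, 0.515 for Ccdc135, 0.725 for Evi2a, 0.573 for Fubp3 and 0.741 for Tmem206. Of these 6 genes only Ccdc135 was called, with a log2 fold change of -2.09 in dKO_Flt3ITD against control (limma adjusted p = 0.00685). Among the members Lat (r = 0.778, rho = 0.860) and Cd247 (r = 0.755, rho = 0.776) resembled Lck most, but with group means removed their r was 0.155 and 0.0648. Cd3d (r = 0.382, rho = 0.406) and Ptcra (r = 0.227, rho = 0.231) resembled it less.

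Markers of other cells that a sort of 100 cells could hold were read beside the members. Later thymocytes, which carry much more CD3 than ETPs, had 8 of 11 markers in the table with a summed level of 46.0 to 78.8 RPKM in dKO_Flt3ITD, 103 to 165 in dKO and 37.0 to 74.4 in control libraries. Cd8b1 was at most 0.227 RPKM in any library. S1pr1 was the 1 gene of this list called, higher in both mutant groups. It passed the filter through mutant libraries alone, so it was bound to look different there. The other tested genes went both ways. Log2 fold changes in dKO_Flt3ITD against control were 1.21 for Cd4, -0.27 for Cd1d1, 0.25 for Rag1, 0.36 for Rag2 and -1.97 for Ccr7. In dKO they were 1.39, -0.0065, 0.87, 2.80 and -1.54 in the same order. NK and innate lymphoid cells, which express Lck and Cd247, had 4 of 10 markers in the table. The sums of these markers were 232 to 1482 RPKM in dKO_Flt3ITD, 563 to 1841 in dKO and 796 to 1697 in control libraries. Nearly all of this was Nkg7, at 670 ± 531 RPKM in dKO_Flt3ITD, 955 ± 595 in dKO and 1214 ± 347 in control libraries. Eomes was at most 0.0884 RPKM in any library. Prf1 was at 0 in all dKO_Flt3ITD libraries and in 3 of 4 control libraries, and reached 14.8 RPKM in dKO. Klrd1 of that list was at 17.7 ± 18.1 RPKM in dKO_Flt3ITD, 4.26 ± 5.44 in dKO and 35.9 ± 23.9 in control libraries and was not called. Its log2 fold change in dKO against control was -3.19 (limma adjusted p = 0.156). The dKO libraries all lay below the control libraries for Klrd1, as they did for 2.38% of all tested genes. Gamma-delta T cells had 2 of 7 markers in the table, with sums of 1.14 to 9.12 RPKM in dKO_Flt3ITD, 5.21 to 13.8 in dKO and 12.5 to 19.2 in control libraries, and Blk at 0 in all dKO_Flt3ITD libraries.

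Some markers of cells outside the T lineage were called. Mast cell and basophil markers (4 of 7) summed to 298 to 664 RPKM in dKO_Flt3ITD, 196 to 418 in dKO and 16.9 to 122 in control libraries, with Il4 called higher in both mutant groups. Il4 passed the filter through mutant libraries alone, so it was bound to look different there. The other genes of this list were not called. In dKO_Flt3ITD against control the log2 fold changes were 2.19 for Cpa3, 1.83 for Hdc and -0.97 for Mcpt8. In dKO they were 1.53, 0.34 and -0.72 in the same order. Myeloid markers (7 of 9) summed to 90.2 to 993 RPKM in dKO_Flt3ITD, 148 to 319 in dKO and 128 to 398 in control libraries, with Emr1 called higher in dKO_Flt3ITD. Emr1 too passed the filter through mutant libraries alone. Elane, which was not tested, was at 0 in all control libraries and in 3 of 4 dKO libraries. The rest of that list went both ways and was not called. In dKO_Flt3ITD against control the log2 fold changes were -1.50 for Mpo, -0.82 for Itgam, -0.10 for Lyz2, 0.59 for Csf1r and 0.86 for Ly6c2. In dKO they were -1.41, -0.45, 0.18, 0.84 and -1.35 in the same order. Plasmacytoid dendritic cell markers (6 of 8) summed to 102 to 531 RPKM in dKO_Flt3ITD, 102 to 165 in dKO and 175 to 401 in control libraries, with Cox6a2 and Ly6d called lower in both mutant groups and Cox6a2 at 0 in all dKO_Flt3ITD libraries. Other genes of that list did not fall with them. In dKO_Flt3ITD against control the log2 fold changes of Bst2, Tcf4 and Irf8 were 1.04, 0.04 and 0.65. In dKO they were 0.13, 0.25 and -0.81, none was called, and Siglech was not tested. B-lineage markers (3 of 7) summed to 55.5 to 105 RPKM in dKO_Flt3ITD, 87.8 to 151 in dKO and 58.3 to 98.2 in control libraries, nearly all of it Cd79b. Vpreb1 was at 0 in all dKO_Flt3ITD libraries and in 3 of 4 control libraries. Thymic stroma markers (2 of 7) summed to at most 3.12 RPKM in dKO_Flt3ITD, 10.8 in dKO and 3.50 in control libraries. Of 6 erythroid markers 0 were in the table. The part of any of these cells in the levels of Lck, Lat or Cd247 was not tested.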

How the data were processed

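The authors deposited 1 table of RPKM values for 12 libraries, matched to the samples by their descriptions and grouped by their titles. The tools HTSeq 0.5.4p5, SAMtools 0.1.19 and TopHat2 2.0.10 and the build mm10 are given by the submitters' processing notes, with no strand setting, gene filter or total given in the sources used here. From the steps between low RPKM values, whole reads were recovered within 0.001 for 100% of 13016 genes. Genes reaching 1 RPKM in 4 or more libraries, 10690 in all, were tested on the log2(RPKM + 1) scale with limma 3.58.1 (R 4.3.3), using a variance trend on intensity and 1 coefficient per group. All 12 libraries shared 1 fit with 9 residual degrees of freedom, and p-values were adjusted by Benjamini-Hochberg over all genes tested, with a threshold of 0.05. The tables were handled with Python 3.11.15 and pandas 2.3.3.

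On simulated data with 200 changed genes among 10690, log2 changes of 1, 2 and 3 were recovered in 4.48%, 46.3% and 83.3% of cases in dKO_Flt3ITD against control, so smaller differences are mostly missed at this number of libraries. In dKO against control they were recovered in 8.96%, 58.2% and 78.8% of cases. Of the calls on simulated data 3.26% were false in dKO_Flt3ITD against control, 8.49% in dKO against control and 5.83% in dKO_Flt3ITD against dKO.

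The members, the lists and the tests were chosen with earlier results of these data known. Named are every member in the table, the relatives Fyn, Syk, Lat2 and Fcer1g, per list and comparison with control up to 4 called genes or else the 1 with the smallest p, and the 6 genes most correlated with Lck, leaving out predicted genes and pseudogenes. Marker lists are given by their sums, with called genes and some others named. Items that the rule gives are in part not reported here. Alternatives were other pseudocounts, filters, scalings and variance models, only the 8 libraries compared, a replicate block, voom on recovered reads and leaving out each library. A fit of log2 CPM of the recovered reads without voom weights and a fit without replicate 1 of every group were added after seeing the data. Gene positions are those of GENCODE M21 (GRCm38), and promoter sequences come from RefSeq on GRCm38.p6, where all 8 genes matched by symbol. No set test was run.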

Additional observations from a re-analysis of the deposited data

Results flagged for a closer look

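Of 20 groups of 4 libraries in which a member was above 0 somewhere, 5 had 1 library far from the rest, with a gap to its nearest neighbour that took up nearly the whole range of the group and passed Dixon's critical value for 4 values. For continuous values chance gives about 1 in 20 such groups. That rate does not apply to 3 of the 5, in which 1 library had reads and the others were at 0, so that the gap equals the range by construction. All 5 were single high libraries among values at or near 0. Cd247 was at 0.510 RPKM in dKO_Flt3ITD replicate 3, against 0.0160 RPKM in the next library of that group. Zap70 was at 0.837 RPKM in dKO_Flt3ITD replicate 2 and at 0.302 RPKM in dKO replicate 1, with the other libraries of both groups at 0. Zap70 was also at 1.75 RPKM in control replicate 3, against 0.0230 RPKM in control replicate 2 and 0 in the rest. Cd3g was at 0.0525 RPKM in dKO replicate 4, which is 1 read, with the other dKO libraries at 0.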

How the results depend on the processing

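The members called in dKO_Flt3ITD against control, 1 as reported, numbered 2 with no filter on low values, 3 after scaling libraries to the same sum, 2 after quantile normalization, 2 without the intensity trend, 3 with array weights, 1 to 2 with 1 library left out and 2 without replicate 1 of every group. The added calls were Cd247, Lat or both. In dKO against control, 0 as reported, it was 1 (Cd247) with no filter and 1 with array weights, and 0 to 0 with 1 library left out. In dKO_Flt3ITD against dKO it was 0 in every fit. The difference of Cd247 between dKO_Flt3ITD and dKO, -0.14 as reported, was between -0.29 and 0.0062 with 1 library left out, changing sign without dKO replicate 1, and 0.0514 without replicate 1 of every group; the cause was not tested. Of 309 member values under the alternatives, 307 kept their sign, 11 newly passed and 0 were lost. Filtering at 5 RPKM removed Cd247 and Cd3d. Scaling to the same sum moved the median of all genes to -0.21 in dKO_Flt3ITD against control, with 84 genes called higher and 84 lower in place of 106 and 54. Over all genes, calls against control ran from 27 (voom) to 235 (array weights) beside 160 as reported in dKO_Flt3ITD, and from 5 (voom) to 210 (array weights) beside 109 in dKO. Same-numbered libraries did not deviate together (r between -0.147 and 0.126 over 12 pairs, 2 of them over 0.1), so the numbers were not taken as pairs; with a replicate block 1, 0 and 0 members were called in dKO_Flt3ITD against control, dKO against control and dKO_Flt3ITD against dKO, beside 1, 0 and 0 without it. Of the other genes called in the lists, the block ended the call of Id1 alone. Depth limits Cd3g, Zap70, Cd3d and Cd247, which rested on at most 58 reads in any mutant library.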
